A study of Mus musculus with 8 samples.

Results

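Accessible chromatin was described at 10 genes that encode chemokines and cytokines of the thymus, namely Ccl19, Ccl21a, Ccl22, Ccl17, Ccl25, Cxcl12, Cxcl10, Xcl1, Il7 and Il15. The genes were taken by name from a list drawn up for this description, out of 21938 protein-coding genes of the GENCODE M21 annotation on the mm10 mouse genome. Around each gene, all regions that overlapped the gene body or the 20 kb on either side of it were collected. This gave 36 of the 57124 regions of the whole set, which covered 10561 of the 580019 bases in the windows.

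Chemokines are small secreted proteins that guide cells through receptors coupled to G proteins, and the thymus uses them to move developing T cells between cortex and medulla. Ccl19 and Ccl21a are ligands of CCR7, which draws thymocytes into the medulla, whereas Ccl17 and Ccl22 bind CCR4, Ccl25 binds CCR9, Cxcl12 binds CXCR4, Cxcl10 binds CXCR3, and Xcl1 binds XCR1 on dendritic cells. Il7 and Il15 are cytokines that signal through the common gamma chain, the first needed by early thymocytes and the second by natural killer cells, invariant natural killer T cells and intraepithelial T cells.

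Open chromatin was profiled by ATAC-seq, an assay that tags accessible DNA with the Tn5 transposase, in medullary thymic epithelial cells (mTECs) of wild-type BL6N6 mice aged 4 to 6 weeks. The cells were sorted as CD45neg, Epcam-positive and CDR1neg, then by the tetraspanin Tspan8 and by MHC class II. Each of the 4 sorted groups (Tspan8pos MHCIIhi, Tspan8pos MHCIIlo, Tspan8neg MHCIIhi and Tspan8neg MHCIIlo, all of wild-type genotype) had 2 biological replicates, 8 samples in all. The regions form 1 set merged over the samples, so a region shows that a peak was called, but not in which of the 4 groups. How many mice entered a sample is not given in the sources used here.

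A region counted as a promoter region where its centre lay from 1000 bases upstream to 100 bases downstream of an annotated transcription start. By this measure 7 of 7 genes listed as markers of thymic epithelium (Epcam, Foxn1, Aire, Krt5, Krt14, Cldn4 and H2-Aa) had a promoter region. H2-Aa is an MHC class II gene. The paper names dendritic cells and thymic B cells as further users of MHC class II, so H2-Aa does not separate epithelium from them. A promoter region was present at 0 of 6 thymocyte markers, 0 of 6 markers of dendritic cells and macrophages and 0 of 4 B cell markers. It was present at 0 of 6 fibroblast markers and 1 of 4 endothelial markers, the last being Kdr. These zeros rest in part on the promoter rule, since 1 dendritic cell marker (Flt3), 1 B cell marker (Cd79a) and 3 fibroblast markers (Col1a1, Col1a2 and Pdgfra) had a region within 1000 bases of a start. A region lay in the window of 7 of 7 epithelial, 5 of 6 thymocyte and 5 of 6 dendritic cell and macrophage markers. The window also held a region at 3 of 4 B cell, 5 of 6 fibroblast and 3 of 4 endothelial markers. Over all protein-coding genes the share was 48.6% for a promoter region, 63.1% within 1000 bases of a start and 81.5% in the window. Across all regions the median width was 212 bases. It was 509 bases for promoter regions of protein-coding genes and 178 bases for the rest. Depth is unknown here, since only the position and width of the regions were used, and no value per sample or per group is given.

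Of the 10 genes, 5 had a promoter region (Ccl25, Cxcl12, Cxcl10, Il7 and Il15), beside 48.6% of all protein-coding genes (10664 of 21938). At least 1 region lay in the window of 9 of the 10 genes, beside 81.5% of all protein-coding genes. Both counts were near the background and mark nothing particular to these genes. A promoter region was present at 3 of the 8 chemokine genes and at both cytokine genes. The 8 chemokine genes had 24 regions in their windows and the 2 cytokine genes had 12. By receptor, the CCR7 ligands Ccl19 and Ccl21a had 3 regions, the CCR4 ligands Ccl17 and Ccl22 had 6, Ccl25 had 4, Cxcl12 had 3, Cxcl10 had 8 and Xcl1 had 0.

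**Figure D1:**
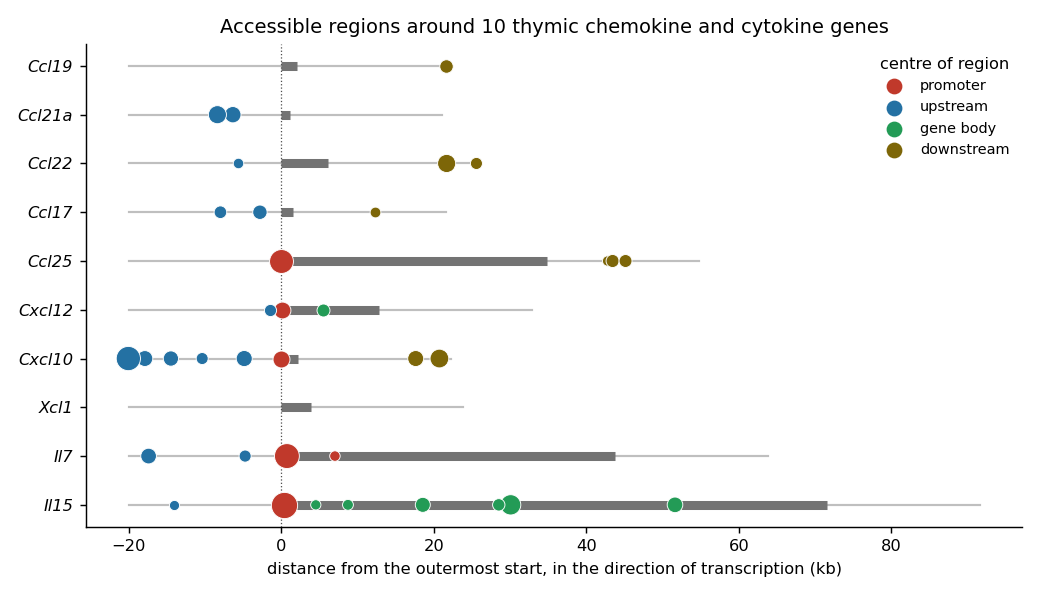
Position of the 36 regions around the 10 genes, with the distance from the outermost transcription start on the x axis in kb and 1 gene per row. Thick grey bars are gene bodies, thin lines the windows, and points the centres of regions, larger where the region is wider and coloured by place; red promoter points appear in 5 of the 10 rows and the Xcl1 row is empty.

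The number of regions per 100 kb of window allows genes of different length to be compared. Its median over protein-coding genes was 3.86, with quartiles of 1.5 and 6.88, and its median over the 10 genes was 5.51. It was above the median of protein-coding genes at 7 of the 10 with windows of 10 kb or of 50 kb on either side. With the 20 kb used here it was above the median at 8 of the 10. The order ran from Cxcl10 with 18.9 regions per 100 kb through Ccl17 with 7.21, Il15 with 7.17, Ccl22 with 6.51, Cxcl12 with 5.68, Ccl25 with 5.35, Ccl21a with 4.86, Il7 with 4.78 and Ccl19 with 2.38 to Xcl1 with 0. At Cxcl10, 99.4% of protein-coding genes had fewer regions per 100 kb. This first place depended on the window. With 10 kb on either side Cxcl10 had 8.99 regions per 100 kb, beside 9.46 at Ccl21a, 9.27 at Ccl17 and 9.14 at Cxcl12. With 50 kb it had 12.7, beside 12.8 at Ccl17 and 12.3 at Ccl22. For the genes from Ccl17 to Il7 the share with fewer regions at 20 kb ran from 77.3% down to 59.6%, and neighbours in this order differed by less than the change that 1 region in a window would make. The values are counts of merged regions with no replicates, so no spread belongs to them.

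**Figure D2:**
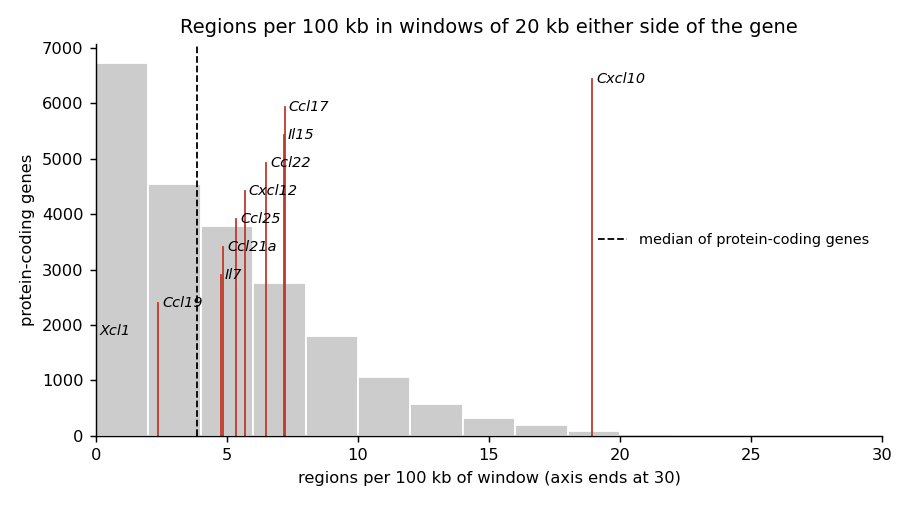
Histogram of the number of regions per 100 kb of window (x axis, up to 30) over 21938 protein-coding genes (y axis, genes), with the 10 genes as red lines and the median of 3.86 as a dashed line. Cxcl10 at 18.9 lies to the right of the other 9 with this window, and Xcl1 and Ccl19 lie below the median.

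Cxcl10, the interferon-induced ligand of CXCR3, had 8 regions in its window. The promoter region was 351 bases wide (chr5:92348752-92349102, mm10), with its centre 38 bases upstream of the start. It overlapped the first exon of Cxcl10, which is on the minus strand, and lay within an intron of Art3, a gene on the plus strand. The part of this region before the start is shown because it holds matches to 4 motifs, which are in capitals.

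Cxcl10, chr5:92348890-92349102, minus strand: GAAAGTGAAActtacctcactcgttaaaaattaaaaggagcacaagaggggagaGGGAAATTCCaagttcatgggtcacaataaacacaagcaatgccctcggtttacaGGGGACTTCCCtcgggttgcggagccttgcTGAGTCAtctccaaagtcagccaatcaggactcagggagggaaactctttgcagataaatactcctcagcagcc

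Reading from the 5′ end, the capitals mark an interferon-stimulated response element (ISRE, searched as GAAANNGAAA) whose first base lay 213 bases upstream of the start. An NF-kB match followed, with its first base 159 bases upstream, then a pair of overlapping NF-kB matches at 104 and 103 bases upstream. An AP-1 match (searched as TGANTCA) stood 74 bases upstream. An ETS match (searched as GGAAGT) lay on the other strand inside the overlapping NF-kB pair. The ISRE was formed by the outermost 10 bases of the region, so that the called region ended where the match began.

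The other regions of the Cxcl10 window fell in a cluster of 3 genes for CXCR3 ligands, Cxcl9, Cxcl10 and Cxcl11. A region of 449 bases covered the start of Cxcl9, with its centre 76 bases upstream of that start. A region of 267 bases covered an annotated start of Cxcl11, with its centre 81 bases upstream. Cxcl11 is listed as a polymorphic pseudogene in this annotation and is therefore not among the protein-coding genes counted here. A region of 301 bases lay with its centre 578 bases upstream of a start of Art3. The remaining 4 regions lay in introns of Art3, from 4856 to 20048.5 bases upstream of the start of Cxcl10, and the last of them was the widest outside promoters with 812 bases. The region centred 4856 bases upstream is shown for its central 300 bases, where the capitals mark an ETS, an NF-kB and a GAS match (gamma-activated site, searched as TTCNNNGAA), in this order.

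Cxcl10, chr5:92353596-92353895, minus strand: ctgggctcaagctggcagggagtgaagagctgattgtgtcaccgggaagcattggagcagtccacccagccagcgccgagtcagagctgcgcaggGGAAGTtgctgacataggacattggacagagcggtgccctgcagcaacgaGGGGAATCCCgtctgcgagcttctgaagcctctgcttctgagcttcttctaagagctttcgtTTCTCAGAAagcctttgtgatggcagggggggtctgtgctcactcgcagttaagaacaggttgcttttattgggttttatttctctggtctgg

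Ccl25, the ligand of CCR9, had a promoter region of 784 bases (chr8:4324755-4325538), wider than 80.1% of promoter regions of protein-coding genes. Its centre lay 86.5 bases upstream of a Ccl25 start. The same region also covered an annotated start of Elavl1, a gene for an RNA-binding protein on the opposite strand. Its centre lay 266.5 bases downstream of that start and so outside the promoter range for Elavl1. The other 3 regions of Ccl25 lay downstream of the gene and were 74, 172 and 167 bases wide. Within the 34811 bases of the gene body no region was centred. The 300 bases around the Ccl25 start held 51 CpG dinucleotides with a GC content of 72.7%, the highest of the 10 genes in both.

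Cxcl12, which acts on early thymocytes through CXCR4, had 3 regions. The promoter region was 345 bases wide (chr6:117168428-117168772) and covered 3 annotated starts, with its centre 23 bases downstream of the nearest. A region of 138 bases lay 1528.5 bases upstream of the start. A region of 168 bases lay 5479.5 bases downstream of a start, over an exon with untranslated sequence, and held 2 NF-kB matches. The part of the promoter region before the outermost start is shown, and its capitals mark the only match in it, GACGC read on the other strand, the core of the motif of FOXN1, the master factor of thymic epithelium.

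Cxcl12, chr6:117168428-117168534, plus strand: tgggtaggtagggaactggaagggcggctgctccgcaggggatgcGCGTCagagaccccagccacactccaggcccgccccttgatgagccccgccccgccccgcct

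Il7, the cytokine that early thymocytes need for survival, had 4 regions, 2 of them at annotated starts. The wider one spanned 859 bases (chr3:7612591-7613449), wider than 85.3% of promoter regions, and covered a start of Il7, with its centre 127 bases upstream of it and 740 bases downstream of the outermost start. It also overlapped an exon of the noncoding gene Gm16685. The narrower one had 78 bases (chr3:7606685-7606762) and lay in an intron, 859.5 bases upstream of an internal start. Upstream, regions of 135 and 288 bases lay 4736 and 17393.5 bases from the start, both in an intron of Gm16685. The wide region held 2 NF-kB matches, 1 ETS match and 1 FOXN1 core match.

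Il15, a cytokine for lymphocytes with cytotoxic function, had 8 regions. Its promoter region was the widest of all 36 with 966 bases (chr8:82402315-82403280), wider than 90.7% of promoter regions, and it extended over the outermost start and an internal one. It held 2 ISRE and 2 NF-kB matches, the first of the ISRE matches 18 bases upstream of the outermost start. The introns of Il15 held 6 further regions, between 3138 and 50231.5 bases downstream of the nearest start and between 71 and 541 bases wide. They made up 6 of the 7 regions that lay in a gene body outside promoters, and Cxcl12 had the other. The last region of 69 bases lay 13999 bases upstream. From the widest intronic region, the 300 bases that hold its ISRE matches are shown. The capitals mark an NF-kB match, an AP-1 match and 2 ISRE matches that share 4 bases.

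Il15, chr8:82372878-82373177, minus strand: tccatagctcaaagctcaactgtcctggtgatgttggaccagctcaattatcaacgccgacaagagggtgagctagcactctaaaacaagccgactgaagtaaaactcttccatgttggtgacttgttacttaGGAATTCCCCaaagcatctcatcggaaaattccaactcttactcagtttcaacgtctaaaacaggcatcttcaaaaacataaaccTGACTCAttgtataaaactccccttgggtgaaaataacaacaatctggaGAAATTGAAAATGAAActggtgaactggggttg

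Ccl17 and Ccl22, both ligands of CCR4, are neighbours on chromosome 8, with Cx3cl1, the gene of fractalkine, between them. Neither had a promoter region. At Ccl17 the regions lay 7975 and 2797.5 bases upstream and 12315.5 bases downstream of the start, with widths of 155, 228 and 88 bases. The downstream one overlapped an exon of Ciapin1. At Ccl22 the nearest region had 80 bases and lay 5649.5 bases upstream. The other 2 regions lay downstream, with widths of 413 and 133 bases, and were nearer to a start of Cx3cl1 than to that of Ccl22. The latter was centred 831 bases upstream of that start. Cx3cl1 itself had a promoter region and 9 regions in its own window. The regions nearest to the starts of Ccl17 and Ccl22 are shown whole, with an NF-kB match in capitals in the first and no match to any of the motifs in the second.

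Ccl17, chr8:94807542-94807769, plus strand: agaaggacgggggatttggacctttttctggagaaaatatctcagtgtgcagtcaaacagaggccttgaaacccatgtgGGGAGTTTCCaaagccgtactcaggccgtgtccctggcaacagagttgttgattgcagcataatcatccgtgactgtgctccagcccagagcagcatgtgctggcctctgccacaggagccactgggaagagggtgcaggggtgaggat

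Ccl22, chr8:94739901-94739980, plus strand: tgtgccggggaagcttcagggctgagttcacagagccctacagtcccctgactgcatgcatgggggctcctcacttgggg

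Xcl1, a chemokine that mTECs use to place dendritic cells in the medulla, had no region in its window. The centre of the nearest region lay 30277.5 bases downstream of its start. With windows of 50 kb on either side, Xcl1 had 2 regions. A window with no region was found at 18.5% of protein-coding genes. All words of 100 bases within 500 bases of the Xcl1 start occurred once in the genome (100%), beside 88.7% over the whole window, where the bins from 13 to 18 kb downstream of the start had between 11.2% and 36%.

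Ccl19 and Ccl21a, the ligands of CCR7, lie next to each other on chromosome 4 in a stretch with near-identical copies of both genes. The authors removed reads with several alignments, so the same measure, the percentage of single-copy words of 100 bases around the starts, was computed for every gene. It was 0% at Ccl19 and at Ccl21a and 100% at the other 8 genes. Over the gene bodies it was 0% for both, and over the whole windows 0.183% for Ccl19 and 0.187% for Ccl21a. The median number of copies of a word within the gene body was 2 for Ccl19 and 9 for Ccl21a. Among protein-coding genes with under 50% of such words around their starts (959 genes), 3.02% had a promoter region. The share was 19.98% for genes with 50% to under 90% (876 genes) and 52.0% for genes with 90% or more. Closed chromatin and removed reads therefore cannot be told apart at the starts of Ccl19 and Ccl21a.

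The annotation lists further copies. Ccl19 has 4 entries in all, among them the pseudogenes Ccl19-ps1 and Ccl19-ps3 on chromosome 4 and 1 copy on a scaffold outside the chromosomes. Ccl21a has 2 entries, Ccl21b has 3 and Ccl21c has 1. When words were counted over the 21 chromosomes without the scaffolds, the share found once was 61.8% around the Ccl19 start and 60.7% around the Ccl21a start. Over the gene bodies it was then 56.8% and 42.5%. The values around the starts would fall in the class of 50% to under 90%, but the classes were not recounted without the scaffolds. Which of these sequences the reads were aligned to is not given in the sources used here, and 0 of the 57124 regions lay on a scaffold.

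**Figure D3:**
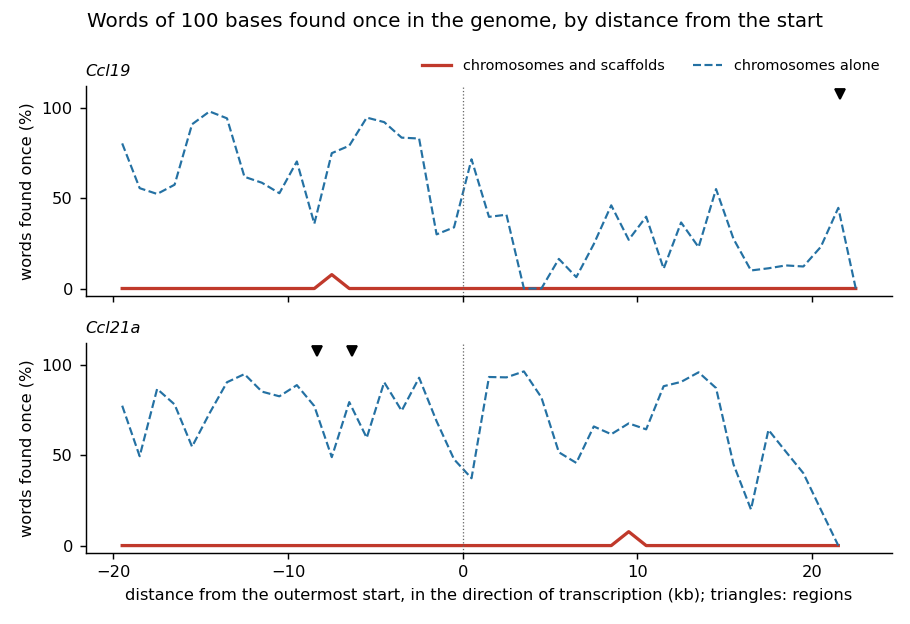
Percentage of 100-base words found once in the genome (y axis), in bins of 1 kb by distance from the outermost start of Ccl19 and Ccl21a (x axis, kb), counted over chromosomes and scaffolds (solid red) or over chromosomes alone (dashed blue). Triangles mark the 1 region of Ccl19 and the 2 of Ccl21a; no bin of the red line exceeds 7.7% in either window.

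Ccl19 and Ccl21a had 1 and 2 regions. For Ccl19 it was 189 bases wide (chr4:42734913-42735101), 21482 bases downstream of the start and 538 bases upstream of a start of 4930578G10Rik, a gene on the other strand. For Ccl21a the regions were 319 bases (chr4:42780181-42780499) and 411 bases (chr4:42782160-42782570) wide and lay 6347 and 8372 bases upstream of the start. Both lay in an intron of 4930578G10Rik, and the latter also in an intron of Gm12394. None of the words in these 3 regions occurred once over chromosomes and scaffolds. Over the chromosomes alone the share was 100%, 100% and 73.2%. In the other 33 regions of the 10 genes it was 100% either way. Under 50% of words occurred once in only 0.186% of all 57124 regions. The stretch of chromosome 4 from the transcription start of Ccl27a to the end of Fam205c (chr4:41774247-42874234) held 6 regions. That is 5.45 per Mb, beside 23.96 per Mb over the whole chromosome. The first of the 6, chr4:41773623-41774306, lay across the edge of the stretch at Ccl27a.

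The regions near the CCR7 ligands are shown because no others were called at these genes. The first region of Ccl21a, given by its central 300 bases, holds an NF-kB match and an ETS match in capitals. Its second region, also given by its central 300 bases, holds a KLF match (Krüppel-like factors, searched as GGGNGTGG) in capitals. An ETS match of that region lies outside the bases shown. The Ccl19 region, shown whole, holds KLF matches with an ETS match before them.

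Ccl21a, chr4:42780191-42780490, minus strand: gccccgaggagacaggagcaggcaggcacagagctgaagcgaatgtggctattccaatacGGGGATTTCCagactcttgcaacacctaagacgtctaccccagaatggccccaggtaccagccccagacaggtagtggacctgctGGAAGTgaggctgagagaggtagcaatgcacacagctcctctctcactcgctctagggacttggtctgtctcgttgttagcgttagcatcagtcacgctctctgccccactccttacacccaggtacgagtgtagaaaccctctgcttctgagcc

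Ccl21a, chr4:42782216-42782515, minus strand: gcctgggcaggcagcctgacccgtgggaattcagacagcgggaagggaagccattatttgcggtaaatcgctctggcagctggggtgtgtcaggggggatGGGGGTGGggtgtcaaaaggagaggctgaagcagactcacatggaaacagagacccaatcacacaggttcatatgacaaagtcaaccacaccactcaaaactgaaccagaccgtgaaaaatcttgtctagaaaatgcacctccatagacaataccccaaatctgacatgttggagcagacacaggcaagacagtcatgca

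Ccl19, chr4:42734913-42735101, minus strand: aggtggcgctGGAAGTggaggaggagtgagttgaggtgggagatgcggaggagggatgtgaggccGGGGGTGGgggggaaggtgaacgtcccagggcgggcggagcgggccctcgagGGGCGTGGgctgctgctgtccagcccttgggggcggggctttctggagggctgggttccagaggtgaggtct

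By place, 6 of the 36 regions were promoter regions, 14 lay upstream, 7 in gene bodies and 9 downstream. The promoter regions had a median width of 567.5 bases and ranged from 78 to 966 bases. Regions outside promoters had a median of 180.5 bases, which was close to the 178 bases of all regions outside promoters. The median was 247.5 bases upstream, 168 bases in gene bodies and 172 bases downstream. Of the 36 regions, 7 were narrower than 100 bases, 26 overlapped no exon and 10 lay in no gene. A start of another gene and none of their own lay at 5 of them, and 6 were nearer to a start of another protein-coding gene than to one of their own.

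**Figure D4:**
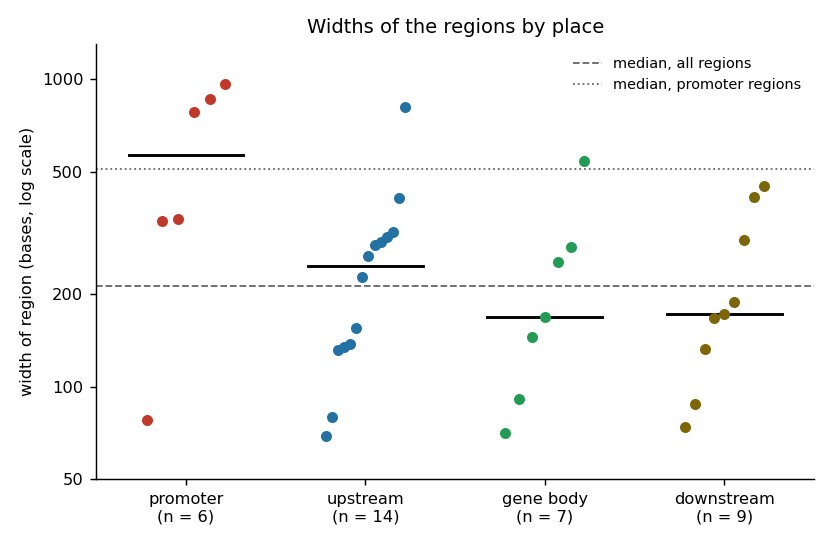
Width of each of the 36 regions (y axis, bases, log scale) by place relative to its gene (x axis), with the median of each place as a black line. Dashed and dotted lines give the medians of all regions (212 bases) and of promoter regions of protein-coding genes (509 bases); the 4 widest regions, from 784 to 966 bases, are 3 at promoters and 1 upstream of Cxcl10.

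The edge of the window decided which regions were counted. Just outside it, the nearest region began 358 bases beyond the edge for Ccl22 and 2062 bases beyond it for Ccl17. For Xcl1 the gap was 6356 bases. One of the 36 regions overlapped a window although its centre lay outside it.

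CpG dinucleotides are frequent at promoters of broadly used genes, and genes with more of them had a promoter region more often, counting CpGs in the 300 bases around the start. The share was 5.57% for genes with 0 to 4 CpGs, 23.6% for 5 to 9, 49.2% for 10 to 14, 65.3% for 15 to 19 and 79.6% for 20 or more. Ccl25, Il7 and Cxcl12 were in the last class, with 51, 25 and 21 CpGs, and 3 of 3 had a promoter region. Cxcl10 had 11 CpGs and a promoter region. Il15, with 9 CpGs, was the only 1 of the 4 genes in the class of 5 to 9 that had one, while Ccl19, Ccl21a and Ccl22 had 5 CpGs each. These counts depended on the annotated start. In the RefSeq promoters described further below, Ccl19 had 10 CpGs, which falls in the class of 10 to 14, and Ccl22 had 8. Ccl17 and Xcl1 had 3 CpGs each, in a class where a promoter region was rare.

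**Figure D5:**
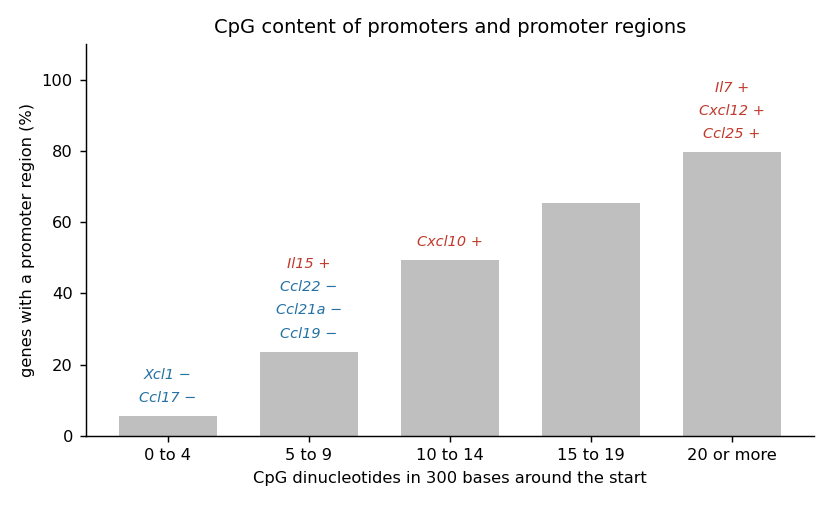
Percentage of protein-coding genes that had a promoter region (y axis) by the number of CpG dinucleotides in 300 bases around the start (x axis). The 10 genes are written above their class, in red with a plus sign where they had a promoter region and in blue with a minus sign where they had none.

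Motif matches were counted in whole regions on both strands, beside all 57124 regions. A match is a run of letters and does not show that a factor was bound. The ISRE was present in 5 of the 36 regions (13.9%), at Cxcl10 and Il15, beside 3.47% of all regions and 3.47% of regions of like width (within 10%). In the central 200 bases it was present in 1 of the 36 (2.78%), beside 2.18% of all regions, so the higher share was not seen there. AP-1 matches were present in 14 regions (38.9%, beside 21.3%), ETS matches in 12 (33.3%, beside 20.9%) and NF-kB matches in 10 (27.8%, beside 19.0%). GAS matches were present in 3 regions (8.33%, beside 7.46%). The FOXN1 core was present in 5 (13.9%, beside 25.9%) and KLF matches in 4 (11.1%, beside 16.5%). Several regions share a gene, so these shares describe the 36 regions and were not tested. Matches overlapped each other in the Cxcl10 promoter region (NF-kB with NF-kB and with ETS) and in an intronic region of Il15 (ISRE with ISRE).

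RefSeq promoter sequences of the GRCm38.p6 build (250 bases before to 50 after the start) were matched for 8 of the 10 genes and gave 9 promoters, while Il7 and Il15 were not matched. Of 32851 promoters in that table, 3.44% held an ISRE, 8.46% an NF-kB match, 7.81% an AP-1 match and 23.8% an ETS match. A GAS match was held by 8.30%, a KLF match by 17.6% and the FOXN1 core by 27.2%. Only the promoter of Cxcl10 held NF-kB and AP-1 matches among the 9. The ISRE was found in those of Ccl19 and Cxcl10, and the FOXN1 core in those of Ccl25 and Cxcl12, with 2 matches in the first. The promoter of Ccl17 held a GAS match. ETS matches were found in 4 of the 9, those of Ccl22, Ccl25, Cxcl10 and Xcl1, and KLF matches in 2, those of Cxcl12 and Xcl1.

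For comparison with the following lists, 48.6% of all protein-coding genes had a promoter region and 81.5% had a region in the window. Other chemokine genes were taken as a list of 33, of which 31 were found among the protein-coding genes. A promoter region was present at 10 of them, namely Ccl2, Ccl7, Ccl20, Cxcl1, Cxcl2, Cxcl3, Cxcl9, Cxcl14, Cxcl16 and Cx3cl1, and 26 had a region in the window. Ccl21b, a copy of the CCR7 ligand gene, had none, and 0% of the words around its start occurred once. Among 13 receptors of these ligands and cytokines, 6 had a promoter region and 12 a region in the window. The former were Ccr7, Cxcr4, the scavenging receptors Ackr3 and Ackr4, the common gamma chain Il2rg and Il15ra, which presents Il15 to neighbouring cells. Ccr4, Ccr9, Cxcr3, Xcr1, Il7r, Il2rb and Ackr2 had none by the promoter rule. Ccr9 and Il7r did have a region within 1000 bases of a start, a wider rule that 8 of the 13 receptors met. Of 15 further cytokines of stromal cells, 6 had a promoter region, namely Flt3l, Lif, Csf1, Il18, Tgfb1 and Tgfb3, and 14 had a region in the window. The wider rule of a region within 1000 bases of a start was met by 8 of these 15, with Kitl and Tgfb2 added. It was met by 11 of the 31 other chemokine genes, with Ccl27a added, and by 63.1% of all protein-coding genes. For each of these lists the share was given as a count only and was not compared with the 10 genes by a test.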

How the data were processed

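The authors aligned ATAC-seq reads to mm10 (Bowtie2), removed mitochondrial, multimapping and low-quality reads (SAMtools) and duplicates (Picard), called broad peaks (MACS2) and merged these into consensus regions (bedtools). The sources used here do not say if peak calling was done on each sample or on a pool. Per the file headers, featureCounts 2.0.3 counted reads over the regions. Of the deposited table, only the coordinates of each region and its width in bases entered the analysis. The names of 8 count columns match no sample label, so these columns were not used, no comparison between groups was made, and depth is unknown.

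The genes and lists were chosen with earlier results of these data known. The rule named the 10 members, genes of the fixed lists that have or lack a promoter region, and regions at a promoter, the widest, or the nearest to the start of a member. Neighbouring genes that overlap these regions or have a start near them, and the regions 4856 bases upstream of Cxcl10 and 8372 bases upstream of Ccl21a, were named after their values were seen. Regions were assigned with GENCODE M21 (basic set) in Python 3.11.15 with numpy 2.4.6 and pandas 2.3.3. Words of 100 bases, about the length of a read, were counted on both strands over 65 sequences of the reference. A read pair spans more than 1 word, so this may overstate how many reads were removed. CpGs were counted from 250 bases before a start, taking the start with most CpGs per gene. Word and window counts were tested on simulated data. Motif matches on the reverse strand were counted too, and overlapping matches were counted separately.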

Additional observations from a re-analysis of the deposited data

How the results depend on the processing

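The count of 5 genes with a promoter region was the same under 5 other definitions, in which the share of all protein-coding genes ran from 44.4% to 63.1%. Genes with a region fell from 9 to 5 when only the gene body was searched. The number of regions was 23 with 10 kb, 61 with 50 kb, and 19 with regions of at least 200 bases alone. The share of words found once at Ccl19 was 0.183% over the whole window and 61.8% over chromosomes without scaffolds. The count without scaffolds was chosen after seeing the data. So were the search for the FOXN1 core and the wider promoter rule for the marker, chemokine, receptor and cytokine lists. Regions with an ISRE fell from 5 to 1 in the central 200 bases, the other matches lying outside them. No paired analysis was possible because the names of the counted libraries match no sample; the replicate block, DESeq2, the low-count filter and leaving out each replicate were not run. Merged regions without depth cannot show absence of open chromatin or a difference between groups.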
